A study of Mus musculus with 9 samples.

Results

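Secreted matrix metalloproteases (MMPs) and their tissue inhibitors (TIMPs) were followed in osteoblasts, the bone-forming cells, cultured directly from the skull vault of newborn mice. The members were 9 genes chosen by name, with every probe carrying one of these symbols: the collagenase gene Mmp13, the gelatinase genes Mmp2 and Mmp9, the stromelysin genes Mmp3, Mmp10 and Mmp11, and the inhibitor genes Timp1, Timp2 and Timp4. They had 14 of the 25697 probes, and 6 of the 9 genes were among the 9490 genes tested. All cells, controls included, carried a lentivirus that expresses RUNX2 under control of doxycycline (dox). They were grown in phenol red-free medium with 20% charcoal-stripped serum, in which charcoal has removed most steroids, and treatment lasted 48 h. Vehicle (n = 2) and dox at 500 ng/ml (n = 2) lay on slide 1, while slide 2 held oestradiol (E2, 10 nM; n = 3) and the combination of dox and E2 (n = 2). Slide and E2 therefore cannot be told apart, while each dox comparison lies within a slide. Nothing in the labels ties the replicates to separate cultures or animals, and p-values therefore measure a spread between samples that may be only technical.

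MMPs are zinc proteases made as inactive precursors, and together they cut most proteins of the extracellular matrix. TIMPs bind the active enzymes and block them, and TIMP2 also takes part in activating the MMP2 precursor at the cell surface together with MMP14. In bone, MMP13 made by osteoblasts and hypertrophic chondrocytes cuts fibrillar collagen, MMP9 is best known from osteoclasts, and Mmp13 is a reported direct target of RUNX2, which acts on its promoter together with AP-1 factors.

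The upstream sequences of Mmp13, Mmp3 and Mmp10 are shown because Mmp13 is the reported RUNX2 target and the other two are stromelysin genes of the same chromosome cluster. They are the 150 bases before the annotated start (positions -150 to -1), from RefSeq on GRCm38.p6, plus strand, at chr9:7272364-7272513 for Mmp13, chr9:7445672-7445821 for Mmp3 and chr9:7502192-7502341 for Mmp10. Capitals mark the AP-1 letters TGACTCA on either strand, the RUNX letters ACCACA on either strand, and the TATA box letters TATAAA on the gene's strand.
Mmp13: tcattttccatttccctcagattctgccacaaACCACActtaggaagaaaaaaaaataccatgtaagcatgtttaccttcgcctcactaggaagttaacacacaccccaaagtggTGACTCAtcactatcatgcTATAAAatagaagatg
Mmp3: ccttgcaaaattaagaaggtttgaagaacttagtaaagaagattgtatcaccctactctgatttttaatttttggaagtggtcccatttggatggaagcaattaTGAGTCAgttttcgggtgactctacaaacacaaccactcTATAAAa
Mmp10: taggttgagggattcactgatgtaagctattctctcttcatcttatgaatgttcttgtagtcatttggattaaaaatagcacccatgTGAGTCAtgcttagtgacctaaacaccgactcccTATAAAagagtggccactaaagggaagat
The Mmp13 stretch held RUNX letters at -118 to -113, AP-1 letters at -35 to -29 and a TATA box at -16 to -11, with no overlap between them. Mmp3 and Mmp10 held AP-1 letters and a TATA box but no RUNX letters in the 250 bases searched. Among 32851 promoters of that length, 4.46% held the AP-1 letters, 14.0% the RUNX letters and 7.59% the TATA box, and 31 held all 3. The promoters of Mmp11, Timp1, Timp2 and Timp4 held none of the 3 in this window, and Mmp2 and Mmp9 were not analysed here. A match describes letters and does not show that a factor binds.

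The 3 genes whose upstream sequences are shown differed in whether they could be read at all. A probe was taken as above background at a detection p-value under 0.05, and a gene was tested when a probe passed on at least 2 arrays. Mmp13 (ILMN_2737685, chromosome 9) was above background on 9 of 9 arrays. The 3 probes of Mmp3 were above background on none, with a lowest detection p of 0.147, and neither was the Mmp10 probe (ILMN_2619952), with a lowest of 0.18. In the gene order of chromosome 9, 10 MMP genes follow each other from Mmp13 to Mmp7. Of these, 8 were above background on no array, and Mmp13 and Mmp1a, a collagenase gene, were above it on all 9. Timp4 (ILMN_2665133, chromosome 6) was also at background throughout, with signals of 108.7 to 142.9 and a lowest detection p of 0.241.

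Mmp9 (ILMN_2711075, chromosome 2) lay at the edge of detection. Its signals ran from 138.1 to 178.3, and it passed on 3 arrays: vehicle replicate 1 (detection value 0.0464), dox replicate 2 (0.0188) and dox plus E2 replicate 2 (0.0451). The E2 arrays were all below background, and each other group had 1 of 2 arrays above it, so differences and orders of Mmp9 levels rest on readings at or near background. Most listed markers of cell types that make this gene were above background on no array. This held for 9 of 12 macrophage and osteoclast markers, among them Ptprc, Csf1r, Adgre1 and Cd68. It also held for 6 of 6 neutrophil markers on the array. The part of such cells in the Mmp9 readings was not tested. The other 3 of the macrophage and osteoclast list were cathepsin K (Ctsk), above background on 9 arrays, the lysozyme gene Lyz2 on 6 and Acp5, the tartrate-resistant acid phosphatase of osteoclasts, on 2. Of the 10 osteoblast markers on the array, 7 were above background on all 9 arrays, among them Alpl, Sp7 and Col1a1, while Ibsp and Postn were so on none.

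**Figure D1:**
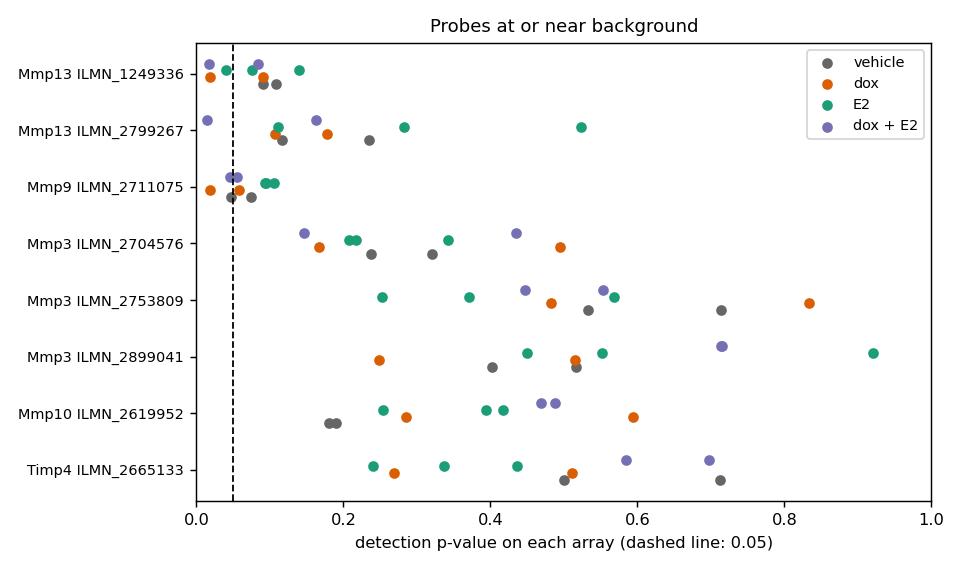
Detection p-value (horizontal axis) of each of 9 arrays for the 8 probes of the family that were not above background on every array, with points coloured by group and a dashed line at 0.05. The Mmp3, Mmp10 and Timp4 probes lie right of the line on every array, while Mmp9 and an Mmp13 probe cross it on 3 arrays each.

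The other members were read on every array: Mmp2 (ILMN_2678218, chromosome 8), Mmp11 (ILMN_2696711, chromosome 10), Timp1 (ILMN_3103896, chromosome X) and Timp2 (ILMN_2712867, chromosome 11) were above background on 9 of 9. Signals were 17746 to 23019 for Mmp2, 675.0 to 1336 for Mmp11, 14211 to 20500.5 for Timp1, 16873 to 26789 for Timp2 and 733.1 to 1121 for Mmp13. These are brightness values of different probes and do not rank the genes. Levels below are background-corrected, quantile-normalised log2 values of the gene's brightest probe, and differences are log2 values ± SE from limma with p-values adjusted by Benjamini-Hochberg over all 9490 genes. With 2 or 3 arrays per group the precision is limited.

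**Figure D2:**
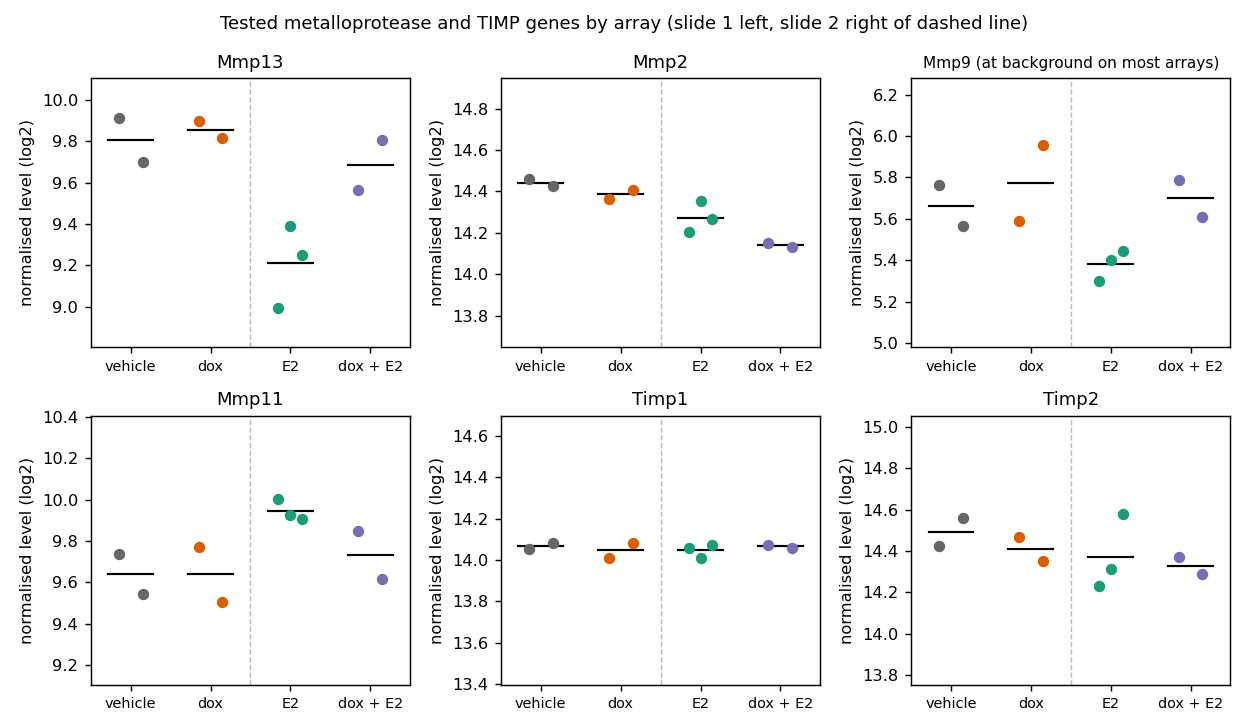
Normalised log2 level of the 6 tested genes on each array, by group, with bars at the group means and each vertical axis spanning 1.3 log2 units. Mmp13 was at 8.99 to 9.39 on the E2 arrays and at 9.56 or more on the other 6, while the Timp1 arrays differed by less than 0.1.

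In normalised levels, Mmp13 was lower on the arrays with E2 alone than on every other array. Its levels were 9.91 and 9.70 with vehicle and 9.90 and 9.81 with dox. They were 8.99, 9.39 and 9.25 with E2, and 9.56 and 9.80 with dox plus E2. The 3 E2 arrays were the lowest of the 9, and no array of another group overlapped them. Group means were 9.86 ± 0.06 (SD, n = 2) with dox, 9.81 ± 0.15 (n = 2) with vehicle, 9.68 ± 0.17 (n = 2) with dox plus E2 and 9.21 ± 0.20 (n = 3) with E2. Dox and vehicle, next to each other in that order, overlapped, and so did vehicle and dox plus E2. Groups did not overlap for 34.3% of all genes in E2 against vehicle and for 20.8% in dox plus E2 against E2. The share of all genes with the E2 arrays set apart from all others was not counted. In the deposited signals, before any scaling, dox replicate 2 (811.5) lay below E2 replicate 2 (839.1).

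The E2 and vehicle arrays give the effect of E2 in cells without dox, together with that of the slide. Mmp13 fell by 0.59 ± 0.12 on the log2 scale, or 1.51-fold (95% interval -0.83 to -0.36, adjusted p = 0.00817, n = 3 and 2). It was the 1 member of 6 that passed in this comparison, where 1.45% of all genes passed and 0.832% passed as lower. At an unadjusted p under 0.05 there were 3 members, Mmp13, Mmp2 and Mmp11, against 15.6% of all genes. The deposited signals, before any scaling, were also lower: 733.1, 839.1 and 741.0 with E2 against 1100.1 and 859.9 with vehicle. Median signals over all probes were higher on slide 2, but on every array the median lay below the lowest signal called above background. The part of the scaling between slides was not tested. The difference missed the threshold without vehicle replicate 1 (-0.49, adjusted p = 0.237), without an intensity trend in the variance prior (adjusted p = 0.19) and with the mean of the gene's kept probes (-0.28, adjusted p = 0.39). It passed with each of the other 8 arrays left out (adjusted p 0.00482 to 0.0437). Markers of heart and slow muscle moved with the same comparison: 5 of 7 were tested, the myosin gene Myh7 was above background on no array, and their summed level was 482.8 to 709.3 with E2 against 1768 to 2074 with vehicle. Chondrocyte markers, of which Acan, Col2a1, Sox9 and Comp were above background on 9 arrays and Col10a1, Matn1 and Matn3 on none, summed to 24060.0 to 27467 with E2 and 26013 to 26230 with vehicle. The summed level of the osteoblast markers was 90548 to 92123 with E2 and 95931 to 96363 with vehicle. All these sums add normalised levels on the linear scale, so bright probes weigh most, and they were not formed under another scaling. The part of these cells and of the slide in the Mmp13 difference was not tested. In bulk RNA, fewer Mmp13-expressing cells and less Mmp13 RNA per cell cannot be told apart.

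With dox present, the E2 difference of Mmp13 did not pass. Dox plus E2 against dox gave -0.17 ± 0.13 for Mmp13 (95% interval -0.43 to 0.09, adjusted p = 0.664). It was -0.053 without dox plus E2 replicate 2, -0.29 without dox plus E2 replicate 3 and -0.065 with the mean of the kept probes. Here 0 of 6 members passed against 0.232% of all genes by limma, with 1 member at an unadjusted p under 0.05, against 10.8% of all genes. That member was Mmp2, the gelatinase A gene, at -0.24 ± 0.07 (unadjusted p = 0.00121, adjusted p = 0.138). Arrays did not overlap for 2 of 6 members, Mmp2 and Mmp13, both lower with dox plus E2, and for 39.7% of all genes.

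The arrays with dox and with vehicle compare cells with and without dox, the inducer of the RUNX2 virus, in the absence of E2. The level of RUNX2 itself was not examined here. Since all cells carried the virus, effects of dox itself and of RUNX2 cannot be told apart. Mmp13 had a difference of 0.05 ± 0.13 (95% interval -0.21 to 0.31, adjusted p = 0.963), and its sign turned without vehicle replicate 2 (-0.06). It was 0.16 without vehicle replicate 1 and 0.17 with the mean of the kept probes. None of the 6 tested members passed with limma, where 0.0316% of all genes did, and 0 had an unadjusted p under 0.05, against 6.77% of all genes. Arrays did not overlap for 1 of 6, Mmp2 (lower with dox), and for 38.1% of all genes. The other differences were -0.00 ± 0.12 for Mmp11, -0.06 ± 0.07 for Mmp2, -0.02 ± 0.07 for Timp1 and -0.08 ± 0.09 for Timp2. The median of the 6 was -0.01, as was the median of all genes.

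With E2 present, dox plus E2 against E2, Mmp13 had a positive difference of 0.47 ± 0.12 (1.39-fold, 95% interval 0.23 to 0.71). Both dox plus E2 arrays (9.56 and 9.80) lay above all 3 E2 arrays (8.99 to 9.39). It did not pass over all genes (unadjusted p = 0.000431, adjusted p = 0.341), though only 11 genes had a smaller p. Its value ran from 0.35 to 0.59 with single arrays left out (adjusted p 0.12 to 0.695). This comparison shares its 3 E2 arrays with that of E2 against vehicle, so the low E2 values enter both. Summed levels of some marker lists, formed as above and with the same limits, also differed between these groups without overlap. For heart and slow muscle they were 380.5 to 443.8 with dox plus E2 against 482.8 to 709.3 with E2. For osteoblasts they were 88692 to 89307 against 90548 to 92123, and for macrophages and osteoclasts 3986 to 4405 against 3509 to 3834. The latter sum held 3 of 12 markers, and Ctsk alone of them was above background on all 9 arrays (dox effect 0.18 ± 0.08 here). Chondrocyte sums overlapped (21920 to 24763 against 24060 to 27467), as did endothelial sums (68.6 to 81.0 against 50.9 to 85.6). Groups of single genes did not overlap for 20.8% of all genes. The part of these cells in the Mmp13 difference was not tested. Here too 0 of 6 members passed, against 0.0738% of all genes, and 2 had an unadjusted p under 0.05, Mmp13 and Mmp2, against 6.23% of all genes.

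The groups of that comparison did not overlap for 4 of 6 members, against 20.8% of all genes, and they went both ways. Mmp13 and Mmp9 were higher with dox plus E2. Mmp9 was at 5.79 and 5.61 against 5.30, 5.40 and 5.45. Of these 5 arrays, dox plus E2 replicate 2 alone was above background, and no fold is given. Mmp2 and Mmp11 were lower. Mmp2 was at 14.15 and 14.13 against 14.20, 14.35 and 14.27 (-0.13 ± 0.06, adjusted p = 0.771). Mmp11, the stromelysin-3 gene, was at 9.85 and 9.62 against 10.00, 9.92 and 9.91 (-0.21 ± 0.11, adjusted p = 0.821). The Mmp11 value was -0.33 without dox plus E2 replicate 2 and -0.097 without replicate 3.

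Whether E2 alters the response to RUNX2, the question in the series title, was tested as the dox effect in E2-treated cells minus that in cells without E2. For Mmp13 it was 0.42 ± 0.17 (95% interval 0.07 to 0.78, unadjusted p = 0.0217, adjusted p = 0.68). No gene passed here (0 of 9490 with limma, 0%), and 652 genes (6.87%), 1 of them a member, had an unadjusted p under 0.05. Both dox effects and the difference rest on the group means above: the dox means with and without E2 were 9.68 and 9.86, and the means without dox were 9.21 and 9.81. The Mmp13 difference ran from 0.30 to 0.54 with single arrays left out and was 0.21 with the mean of the kept probes. Here and above, that mean takes in a second Mmp13 probe (ILMN_1249336) that was above background on only 3 arrays. For the other 4 members read on every array the differences ran from -0.21 ± 0.16 (Mmp11) to 0.04 ± 0.12 (Timp2). The dox effects with and without E2 come from different slides, so E2 and slide cannot be told apart in any of these differences.

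**Figure D3:**
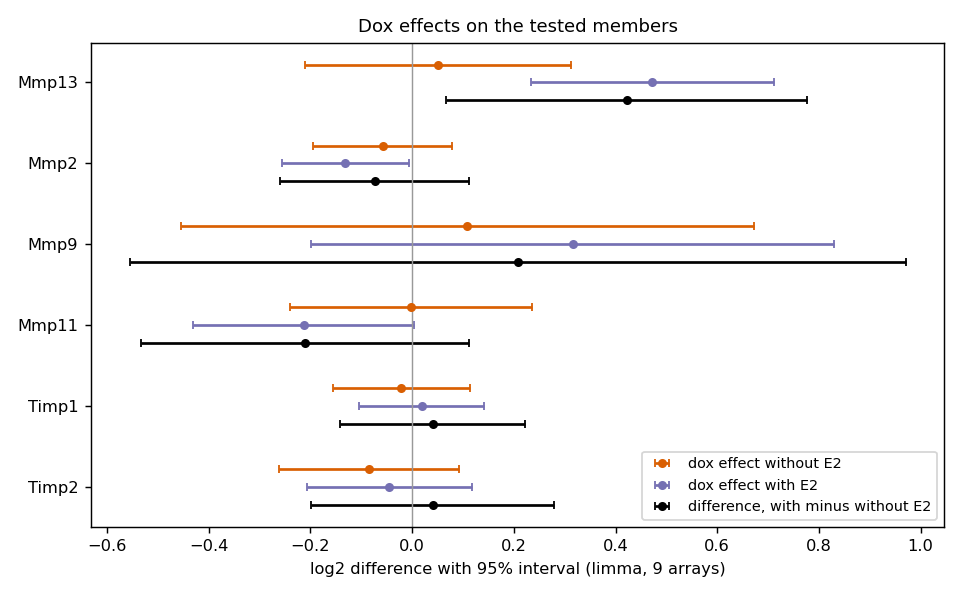
Log2 dox effect of each tested gene without E2, with E2, and the difference of these effects (horizontal axis), with 95% intervals from limma over 9 arrays. The Mmp13 effect with E2 was 0.47 and without E2 0.05, and the TIMP effects lay within 0.1 of 0.

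When all 4 dox arrays were set against all 5 arrays without dox and slide was blocked, Mmp13 was at 0.28 ± 0.09 (95% interval 0.09 to 0.47, unadjusted p = 0.00637, adjusted p = 0.653). This fit takes a common dox effect on both slides, while the Mmp13 effects were 0.05 on slide 1 (without E2) and 0.47 on slide 2 (with E2). The groups overlapped, because the vehicle arrays were as high as the dox arrays. Of the 6 members 0 passed, against 0.116% of all genes, and 2 had an unadjusted p under 0.05 with limma, Mmp13 and Mmp2 (-0.10 ± 0.05, adjusted p = 0.836), against 5.85% of all genes. Members had 3 positive and 3 negative values with a median of -0.03, and the median of all genes was -0.00.

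The other Mmp13 probes did not settle this pattern, since both were near background. ILMN_1249336 was above background on 3 arrays, with levels of 5.35 and 5.48 with vehicle, 5.38 and 6.02 with dox, 5.20, 5.47 and 5.69 with E2, and 5.54 and 5.94 with dox plus E2. Its groups overlapped in each comparison, with dox effects of 0.28 ± 0.30 without E2 and 0.29 ± 0.27 with E2. Its E2 difference without dox was 0.04 ± 0.27, opposite in sign to that of the brighter probe and with an interval of -0.52 to 0.60. ILMN_2799267 was above background on dox plus E2 replicate 3 alone, where it stood at 6.05 against 4.82 to 5.38 on the other arrays. Which part of the transcript each probe reads was not analysed here.

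**Figure D4:**
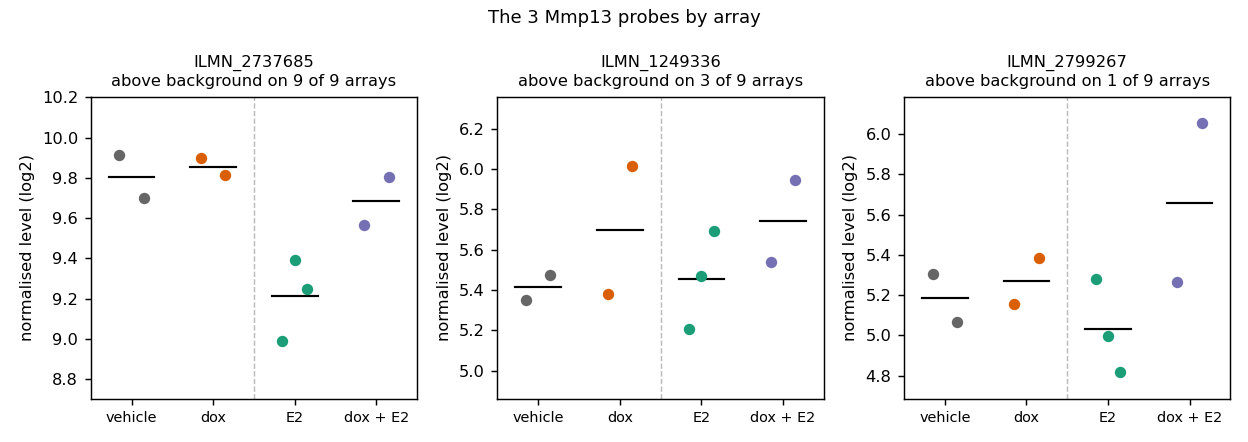
Normalised log2 level on each array for the 3 Mmp13 probes, by group, with bars at the group means and vertical axes of equal span. The brightest probe has its lowest 3 values on the E2 arrays, while the other probes are above background on 3 arrays and 1 array.

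Normalised Mmp2 levels were lower on slide 2 than on slide 1, and no difference of Mmp2 passed. Its levels were 14.46 and 14.43 with vehicle, 14.36 and 14.41 with dox, 14.20, 14.35 and 14.27 with E2, and 14.15 and 14.13 with dox plus E2. Vehicle was highest and dox plus E2 lowest, and no neighbouring groups in that order overlapped. The nearest dox and E2 arrays were at 14.36 and 14.35. Groups did not overlap for 38.1% of all genes in dox against vehicle and for 20.8% in dox plus E2 against E2. The share of all genes with such an order of all groups was not counted. E2 against vehicle was -0.17 ± 0.06 (adjusted p = 0.159), and dox plus E2 was the group furthest from vehicle. These sizes depend on the scaling between arrays: with each array's median set equal in place of quantile normalisation, E2 against vehicle was -0.08, dox plus E2 against dox -0.17 and dox against vehicle 0.029. The last of these turned its sign. Before any scaling, mean Mmp2 signals went the other way between the slides. They were 21903 with E2 against 20274 with vehicle, and 20506 with dox plus E2 against 17825 with dox.

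Mmp11 levels were highest on the arrays with E2 alone. They were at 9.74 and 9.55 with vehicle, 9.77 and 9.51 with dox, 10.00, 9.92 and 9.91 with E2, and 9.85 and 9.62 with dox plus E2. The E2 arrays were the highest 3 of the 9, and the other groups overlapped each other. The share of all genes with the E2 arrays set apart in this way was not counted. E2 against vehicle was 0.30 ± 0.11 (unadjusted p = 0.00803, adjusted p = 0.146), so it did not pass. For E2 against vehicle as a whole, 4 of 6 members had groups that did not overlap, against 34.3% of all genes, with Mmp11 higher and Mmp2, Mmp13 and the near-background Mmp9 lower.

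No difference of an inhibitor passed in any of the 6 comparisons. Timp1 was at 14.05 and 14.08 with vehicle, 14.01 and 14.08 with dox, 14.06, 14.01 and 14.07 with E2, and 14.07 and 14.06 with dox plus E2. All groups overlapped each other, and its 5 simple differences ran from -0.02 to 0.02 with adjusted p of 0.892 or more. Its spread within groups was smaller than that of all but 0.98% of genes. Quantile normalisation gave the 9 arrays only 5 distinct levels, as it ties arrays in which a bright probe has the same rank. With median scaling in its place, the Timp1 dox effects were 0.07 without E2 and 0.13 with E2 (adjusted p = 0.945 and 0.889), and the former turned its sign. A second Timp1 probe (ILMN_2769918) gave dox effects of -0.02 ± 0.07 and 0.02 ± 0.06.

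Timp2 was at 14.43 and 14.56 with vehicle, 14.47 and 14.35 with dox, 14.23, 14.31 and 14.58 with E2, and 14.37 and 14.29 with dox plus E2. Every group overlapped another, and E2 replicate 3 (14.58) was the highest array of all. Its dox effects were -0.08 ± 0.09 and -0.04 ± 0.08, and E2 against vehicle was -0.12 ± 0.08 (adjusted p = 0.477). Mmp14, the membrane protease that works with TIMP2 on the MMP2 precursor, had dox effects of -0.10 ± 0.08 and 0.01 ± 0.07 (adjusted p = 0.846 and 0.991).

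The members did not rise and fall as 1 group. After each slide's mean was subtracted, Mmp13 and Mmp9 had Pearson's r = 0.61 over the 9 arrays and Mmp13 and Mmp11 r = -0.57, the widest values among the 15 pairs. Mmp9 was above background on only 3 of these arrays, so its pairs rest on readings at or near background. Timp1 and Timp2 had r = 0.23. The genes most like Mmp13 by this measure were Trerf1 (r = 0.94), Slc11a1 (r = 0.94) and Olfr497 (r = 0.93). For Mmp2 they were Vcpkmt, Zswim4 and Sf3a3 (0.95 each), for Mmp11 Tmem135, Get3 and BC067068 (0.94 to 0.95), for Timp1 Glb1, Nfx1 and Plpp3 (0.95 to 0.96) and for Timp2 Ube3a, Ino80 and Tceal6 (0.94 to 0.98). The 9 arrays share slides, treatments and a normalisation, and the best of 9490 genes are high by selection, so these values describe and test nothing.

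The rest of the matrix protease system was set beside the members through 6 lists, in the comparison of dox with no-dox arrays. Among other MMPs 8 of 17 were tested and 0 passed (6 positive, median 0.08), with Mmp17 at 0.39 ± 0.18, Mmp19 at 0.35 ± 0.18 and Mmp24 at 0.35 ± 0.20, all with adjusted p of 0.836 or more. Mmp24 was above background on only 2 arrays, so its value rests on readings at or near background. Mmp1a, the other detected MMP of the chromosome 9 cluster, was at 0.12 ± 0.15. Of the other inhibitors 1 of 4 tested rose: Serping1, the inhibitor of complement C1, at 0.54 ± 0.11 (adjusted p = 0.0376). It lost that call without any of 7 arrays in turn (adjusted p 0.0507 to 0.319), and also with no detection filter (0.167), with all probes tested separately (0.0749), without the trend (0.0895), without a term for slide (0.0567) and with the replicate block (0.182). Timp3, a matrix-bound TIMP, was at 0.06 ± 0.06, Reck, a membrane-anchored MMP inhibitor, at -0.03 ± 0.07, and the serpin gene Serpine2 at 0.10 ± 0.17.

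Activating proteases had 0 of 6 tested genes past the threshold (median 0.01). Furin, which cuts the MMP11 and MMP14 precursors, was at -0.15 ± 0.06 (adjusted p = 0.791), and Htra1, a secreted serine protease, at 0.16 ± 0.06 (adjusted p = 0.7), while the kallikrein gene Klk8 was at 0.19 ± 0.19. Klk8 was above background on 5 arrays. ADAMTS proteases had 0 of 6 (median -0.02), with the aggrecan-cutting Adamts4 at 0.26 ± 0.15 (adjusted p = 0.883), Adamts7 at -0.19 ± 0.18 and Adamts1 at -0.09 ± 0.10. Matrix cathepsins had 0 of 7 (median -0.01), with Ctsh at 0.12 ± 0.06 (adjusted p = 0.877), Ctsk, the main collagen-cutting cathepsin of bone, at 0.09 ± 0.06 and the lysosomal protease gene Ctsl at -0.22 ± 0.20 (adjusted p = 0.896 and 0.922). Ctsl was above background on 6 arrays. Uptake receptors and inducers had 0 of 7 (6 negative, median -0.11). Of these, the collagen receptor genes Ddr2, known to induce Mmp13, and Ddr1 were at -0.24 ± 0.09 and -0.12 ± 0.06 (adjusted p = 0.748 and 0.857), and the hyaluronan receptor gene Cd44 was at -0.12 ± 0.07. In E2 against vehicle and in dox plus E2 against dox, 0 genes of the 6 lists passed with limma, and Plau, the urokinase gene, was at -0.47 ± 0.22 and -0.52 ± 0.25 (adjusted p = 0.307 and 0.442).

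**Figure D5:**
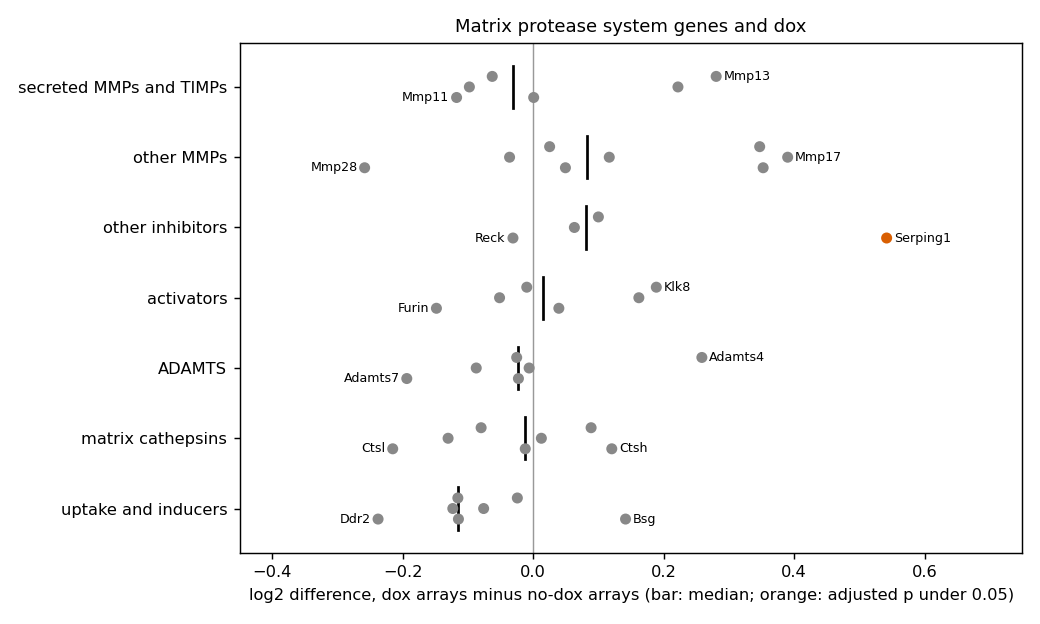
Log2 difference of dox arrays minus no-dox arrays (horizontal axis) for each tested gene of the MMP and TIMP members and of 6 further lists, with bars at list medians and the extreme genes named. Orange marks an adjusted p under 0.05, which Serping1 (0.54) alone reached, while Mmp13 was at 0.28.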

How the data were processed

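Total RNA was measured on 9 Illumina mouse bead arrays. For each probe and array the authors deposited a bead-averaged linear intensity, neither scaled nor background-subtracted, and a detection p-value. The submitters' processing notes name GenomeStudio 2011.1. A second deposited table of intensity values scaled by the authors lay within 0.515% of a quantile normalisation of these signals. No genome build is named in the labels or file headers. Gene symbols were updated through the RefSeq table of GRCm38.p6 (20733 probes current, 3872 renamed, 1092 kept as given).

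Signals were background-corrected, quantile-normalised and log2-transformed after adding 16 (neqc, limma 3.58.1, R 4.3.3). Adding 16 shrinks differences of dim probes toward 0. Of 25697 probes, 12912 were kept (detection p under 0.05 on at least 2 arrays), and a gene was read from its kept probe with the highest mean. Between 11554 and 12206 probes per array were above background. A mean per group was fitted over all 9 arrays in limma with an intensity trend, two-sided, with Benjamini-Hochberg adjustment over 9490 genes and a threshold of 0.05. Dox against no-dox arrays had slide as a block. The code was tested on simulated data. Motifs were searched as exact letters. Figures were drawn with matplotlib 3.10.9. The 9 members, the lists and the tests were chosen with earlier results of these data known. Named genes were all members, list genes past the threshold or, in lists with none, the 3 with the smallest p in the dox against no-dox comparison, and for likeness the 3 genes of highest correlation per member. Mmp1a, Mmp14, Timp3, Reck, Serpine2 and Plau were named after their values were seen.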

Additional observations from a re-analysis of the deposited data

How the results depend on the processing

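The count of members past the threshold was the same under every alternative run for 5 of the 6 comparisons (0 members). In E2 against vehicle it was 1, and 0 with the mean of the kept probes and with no intensity trend, and it ran from 0 to 1 with single arrays left out. All-gene counts moved more: E2 against vehicle had 138 genes, 68 with no detection filter, 91 with the mean of the kept probes, 0 with no intensity trend and 69 with the replicate block. Dox plus E2 against dox had 22 genes, 6 with no trend, 12 with the replicate block and 34 with median scaling, a setting chosen after seeing the data. Dox against vehicle had 3, and 1 with the mean of the probes. Dox plus E2 against E2 had 7, and 3 with no trend. Dox against no-dox arrays had 11, and 7 with no trend and with the replicate block. With single arrays left out these counts ran from 20 to 225 in E2 against vehicle (20 without either vehicle replicate, 225 without dox replicate 1), 10 to 72 in dox plus E2 against dox (72 without dox replicate 2), 2 to 11 in dox against vehicle (11 without dox replicate 1), 2 to 9 in dox plus E2 against E2, 7 to 15 in dox against no-dox arrays and 0 to 4 in the difference of the dox effects (4 without dox replicate 1). The shares of all genes given beside the members move with them. Differences near 0 turned their sign. With median scaling this held for Mmp2 (0.0287) and Timp1 (0.0731) in dox against vehicle, Timp2 (-0.0125) in the difference of the dox effects and Timp1 (0.0347) in E2 against vehicle. With the replicate block it held for Timp2 (-0.00269) in the difference and Timp1 (-0.00533) in dox against no-dox arrays. With single arrays left out the values ran, in dox against vehicle, from -0.13 to 0.13 for Mmp11, -0.058 to 0.16 for Mmp13, -0.076 to 0.29 for Mmp9 and -0.059 to 0.016 for Timp1. They ran from -0.12 to 0.057 for Timp2 in dox plus E2 against E2, from -0.032 to 0.14 for Timp2 in the difference and from -0.011 to 0.018 for Timp1 in dox against no-dox arrays. In dox plus E2 against dox they ran from -0.038 to 0.23 for Mmp11, -0.26 to 0.11 for Mmp9 and -0.019 to 0.056 for Timp1. The cause was not tested. Replicate numbers do not pair the samples by the labels, and same-numbered arrays had correlations of -0.113 to 0.0251 in their deviations from the group means. With the replicate block Mmp13 was at -0.64 in E2 against vehicle (adjusted p = 0.0304). Where leaving out an array left 1 sample in a group, that sample was assumed to vary like the other groups. Signal over background limits Mmp9 and the dim Mmp13 probes.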
